A study of Mus musculus with 2 samples.

Results

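The 7 genes described here encode the subunits of AMP-activated protein kinase (AMPK): Prkaa1 and Prkaa2 for the catalytic alpha subunits, Prkab1 and Prkab2 for the beta subunits, and Prkag1, Prkag2 and Prkag3 for the gamma subunits. They were chosen by name, as every transcript model assigned to one of these genes in the read tables of both libraries, and they are 7 of the 15622 annotated genes with reads. Their reads lay on 76 of 79323 models in replicate 1 and on 56 of 90517 models in replicate 2. The samples were gastrocnemius, a calf muscle, of male B6CASTF1/J mice at 25 days, the F1 hybrid of the strains C57BL/6J and CAST/EiJ, with no treatment or engineered allele in the labels. The series holds 1 group of 2 libraries, each made from 2 µg of total RNA and read as long reads, so there is no condition to compare. The labels number the libraries as biological replicates 1 and 2 from different biosamples, but point both to 1 donor record, so the spread between them may in part be technical.

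AMPK is a heterotrimer that senses the energy state of the cell. The alpha subunit is the kinase, the beta subunit holds the trimer together and carries a glycogen-binding module, and the gamma subunit binds AMP, ADP and ATP. In skeletal muscle the kinase is known for its activation by contraction, and the trimer of the products of Prkaa2, Prkab2 and Prkag3 is known from fast muscle of mouse and human.

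Replicate 1 held 1215785 reads in annotated genes and replicate 2 held 1549606, and CPM below stands for a gene's reads per 1000000 of these reads. Where a gene has no read, the upper limit on its level, from 3 counts, was 2.47 CPM for replicate 1 and 1.94 CPM for replicate 2. In long-read sequencing a transcript is meant to be read as a whole, so a level was not divided by transcript length unless stated. Not all reads here held a complete coding chain, and the libraries differed with length, as given below. All 5 muscle fibre markers (Acta1, Ckm, Myh4, Tnnt3 and Pvalb) had reads in both libraries and summed to 168434 CPM in replicate 1, against 154556 CPM in replicate 2. Within this sum Myh4, the myosin heavy chain of the fastest fibres, had 23867 CPM in replicate 1, against 9831 CPM in replicate 2, while Tnnt3, fast troponin T, had 1964 against 3915 CPM and Pvalb, the calcium buffer parvalbumin of fast fibres, 2549 against 5426 CPM. Markers of other cells also differed between the libraries: the 4 fibroblast markers summed to 4118 CPM in replicate 1, against 705 CPM in replicate 2, and the 4 Schwann cell markers to 25.5 CPM in replicate 1, against 243 CPM in replicate 2. Their part in the values below was not tested. In whole muscle, fewer cells of a type and less RNA per cell cannot be told apart. The part of the length difference between the libraries in these marker values was not tested either.

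All 7 genes were read in both libraries, and together they made up 494 CPM (95% exact Poisson interval 455 to 535) in replicate 1 and 203 CPM (181 to 226) in replicate 2. By reads, one member led each family in both libraries: Prkaa2 among the alpha genes, Prkab2 among the beta genes and Prkag3 among the gamma genes. On annotated transcripts alone, Prkaa2 led Prkaa1 by 45 to 4 reads in replicate 1 but only by 4 to 3 reads in replicate 2. Per kb of model length Prkag3 led Prkag1 in replicate 1 only. The alpha genes summed to 74 reads in replicate 1 and 21 reads in replicate 2, the beta genes to 283 and 103 reads, and the gamma genes to 243 and 190 reads. In CPM the alpha genes averaged 37.2 ± 33.5, the beta genes 149.6 ± 117.6 and the gamma genes 161 ± 54.6 (SD, n = 2). The alpha level lay under the beta and the gamma level in each library.

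Prkab2 came first by mean level, with 217 CPM in replicate 1 and 58.1 CPM in replicate 2. Its mean was 138 ± 112 CPM (SD, n = 2), rank 757 among all 15622 genes. Prkag3 followed with 146 CPM in replicate 1 and 72.3 CPM in replicate 2, a mean of 109 ± 52.4 CPM and rank 959. The order of this pair changed between the libraries, since Prkab2 lay above Prkag3 in replicate 1 and below it in replicate 2. Prkag1 stood at 48.5 CPM in replicate 1 and 41.9 CPM in replicate 2, and Prkaa2 at 54.3 CPM in replicate 1 and 10.3 CPM in replicate 2. These means, 45.2 ± 4.65 CPM for Prkag1 and 32.3 ± 31.1 CPM for Prkaa2, did not differ beyond their spread either. The last 3 were low in both libraries. Prkab1 had 19 reads (15.6 CPM) in replicate 1 and 13 reads (8.39 CPM) in replicate 2. Prkag2 had 6 reads (4.94 CPM) in replicate 1 and 13 reads (8.39 CPM) in replicate 2. Prkaa1 had 8 reads (6.58 CPM) in replicate 1 and 5 reads (3.23 CPM) in replicate 2. The counting intervals of Prkag2 and Prkaa1 overlapped within each library. Divided by the mean length of the models that carried the reads, Prkag3 led with 34.8 ± 16.7 CPM per kb, ahead of Prkab2 with 29.1 ± 23.8 and Prkag1 with 26.9 ± 2.77 CPM per kb (SD, n = 2), and these 3 did not differ beyond their spread. The per-kb order turned between the libraries: Prkag3, Prkab2 and Prkag1 had 46.6, 46.0 and 28.9 CPM per kb in replicate 1, while in replicate 2 Prkag1 led with 25.0, ahead of Prkag3 with 23.0 and Prkab2 with 12.3 CPM per kb.

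**Figure D1:**
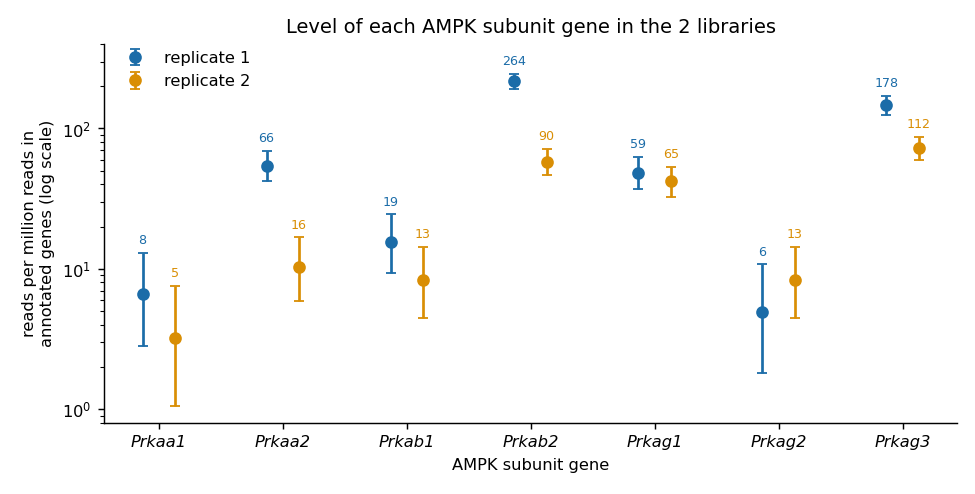
Level of each AMPK subunit gene (CPM, log scale) with replicate 1 in blue left of replicate 2 in orange; bars are exact 95% Poisson intervals of each count and the numbers are reads. The intervals of the 2 libraries do not overlap for Prkaa2, Prkab2 and Prkag3, and they overlap for the other 4 genes.

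Prkaa2 made up 89.2% of alpha reads in replicate 1 (66 of 74 reads; 95% exact binomial interval 79.8% to 95.2%) and 76.2% in replicate 2 (16 of 21 reads; 52.8% to 91.8%), a mean of 82.7 ± 9.19% (SD, n = 2). Prkab2 made up 93.3% of beta reads in replicate 1 (264 of 283 reads; 89.7% to 95.9%) and 87.4% in replicate 2 (90 of 103 reads; 79.4% to 93.1%), a mean of 90.3 ± 4.18%. Both shares were higher in replicate 1, but not past the counting error in two-sided Fisher exact tests between the libraries adjusted over the 5 shares of the families (adjusted p = 0.153 for Prkaa2 and 0.116 for Prkab2). Prkag3 made up 73.3% of gamma reads in replicate 1 (67.2% to 78.7%) and 58.9% in replicate 2 (51.6% to 66.0%), which differed in the same exact test (adjusted p = 0.00997). Prkag1 took 24.3% of gamma reads in replicate 1 and 34.2% in replicate 2 (adjusted exact p = 0.0557), and Prkag2 took 2.47% in replicate 1 and 6.84% in replicate 2 (adjusted exact p = 0.0557). These tests compare the 2 libraries, not conditions, and cover counting error only. The Prkab2 share depended on which models were counted: with annotated models alone it was 37.5 ± 8.31%, because the leading Prkab2 model is classed as incomplete, as described below, and with every model that held a complete coding chain it was 87.3 ± 9.80% (SD, n = 2).

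The models fall into classes: annotated transcripts; incomplete splice matches, which hold part of the exons and introns of an annotated transcript; chains that combine annotated splice sites in a new way or use an unannotated site; and genomic models, which for these genes are all single exons. Annotated transcripts took 35.5% of AMPK subunit reads in replicate 1 (213 of 600 reads; 95% exact interval 31.7% to 39.5%) and 36.9% in replicate 2 (116 of 314 reads; 31.6% to 42.5%), where over all annotated genes they took 65.8% in replicate 1 and 70.6% in replicate 2. Incomplete splice matches took 43.2% of AMPK subunit reads in replicate 1 and 24.8% in replicate 2, against 9.28% and 15.6% over all annotated genes in the same libraries. A single Prkab2 model, described below, held 188 of these reads in replicate 1 and 37 in replicate 2. Genomic models took 9.17% in replicate 1 and 24.2% in replicate 2, against 2.30% and 6.86% over all annotated genes in the same libraries. Most of the genomic reads lay past the stop codon. Single-exon models that lie wholly past the stop codon held 57 AMPK subunit reads (9.50%) in replicate 1 and 73 reads (23.2%) in replicate 2, of which Prkab2 and Prkaa2 had 51 in replicate 1 and 54 in replicate 2. Prkab2-201 and Prkaa2-201, the annotated coding transcripts of these genes, have 4007 and 6218 bases after the stop codon, which is 80.0% and 78.0% of their length.

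**Figure D2:**
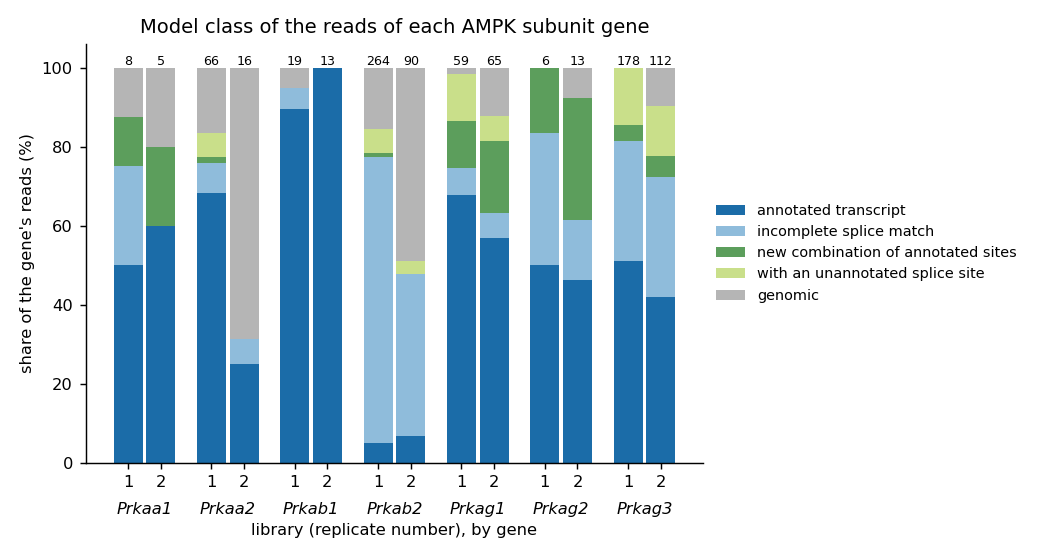
Share of the reads of each AMPK subunit gene (per cent) in each model class, with replicate 1 left of replicate 2 for each gene and the number of reads above each bar. Annotated transcripts hold 4.92% and 6.67% of Prkab2 reads and 89.5% and 100% of Prkab1 reads in replicates 1 and 2.

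A read was taken to hold a complete coding chain where its model spanned the start and the stop codon of an annotated coding transcript and held exactly the introns in between. The model ends used for this are not exact read ends: of the 220 ends of unannotated models of the family, 181 (82.3%) fell on annotated exon boundaries of the same gene. By this measure 437 of 600 reads (72.8%; 95% exact interval 69.1% to 76.4%) were complete in replicate 1 and 164 of 314 reads (52.2%; 46.5% to 57.9%) in replicate 2. Of these, 199 in replicate 1 and 40 in replicate 2 were classed as incomplete splice matches. Complete reads put Prkab2 at 174 CPM in replicate 1 and 29.0 CPM in replicate 2, Prkag3 at 98.7 and 36.8 CPM, and Prkaa2 at 37.0 and 2.58 CPM. The share of complete reads was thus lower in replicate 2, and the levels of these 3 genes lay further apart between the libraries on complete reads than on all reads.

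Prkaa2 lies on chromosome 4 from 105029874 to 105109890 on the minus strand, and its annotated transcript Prkaa2-201, of 7969 bases and 9 exons, is the longest of the leading transcripts of the family. It held 45 of 66 reads in replicate 1 and 4 of 16 reads in replicate 2. Outside incomplete and genomic models that was 45 of 50 reads in replicate 1 and 4 of 4 reads in replicate 2. Reads past the stop codon alone numbered 11 in replicate 1 and 10 in replicate 2. As counted, without scaling to depth, the libraries were thus alike in reads past the stop codon alone. They were unlike in the number of reads over the whole transcript. None of the 8 unannotated Prkaa2 chains was found in both libraries.

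Prkaa1, on chromosome 15 from 5143861 to 5181899 on the plus strand, was read mainly as Prkaa1-201, with 4 reads in replicate 1 and 3 reads in replicate 2. A chain that joins exon 2 to exon 4 was found once in each library. It lacks the coding exon at chr15:5164712-5164805, whose 94 bases are not a multiple of 3. The exon is shown from the annotated transcript sequence, in capitals with 15 bases of each neighbouring exon, and the second line shows the neighbours joined, with the first in-frame stop codon in capitals.
Prkaa1 exon 3: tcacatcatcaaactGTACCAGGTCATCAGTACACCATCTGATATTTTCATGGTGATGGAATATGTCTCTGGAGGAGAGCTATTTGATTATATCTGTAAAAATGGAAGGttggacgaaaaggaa
Prkaa1 joined: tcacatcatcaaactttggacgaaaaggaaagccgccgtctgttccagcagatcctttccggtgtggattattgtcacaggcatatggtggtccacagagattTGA
Read from the start codon of Prkaa1-201, the joined chain has 119 codons before this stop codon, where Prkaa1-201 has 559. At 1 read per library the use of the exon could not be measured: it was skipped in 1 of 5 reads in replicate 1 and 1 of 4 reads in replicate 2 that crossed it (95% exact intervals 0.505% to 71.6% and 0.631% to 80.6%).

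Prkab2, on chromosome 3 from 97658193 to 97673812 on the plus strand, encodes the beta subunit known to predominate in skeletal muscle. The model with most reads, 188 of 264 in replicate 1 and 37 of 90 in replicate 2, is classed as an incomplete splice match with 7 exons. It differs from Prkab2-201 in having no splice at the first intron (chr3:97658370-97658588, 219 bases), which lies in the 5′ UTR before the start codon at 97658614, and it holds all coding introns of Prkab2-201 as removed. As deposited, its first exon runs from 97658214 to 97658766, across the first exon, the first intron and the second exon. Its start, 97658214, is the annotated start of Prkab2-202, so reads that keep the intron and reads that begin inside it or in the second exon cannot be told apart here. The annotated form with this intron removed had 11 reads in replicate 1 and 6 reads in replicate 2. An unannotated form whose first intron begins 91 bases further downstream, at 97658461, had 13 reads in replicate 1 and 2 reads in replicate 2. Over all models that span the intron it was not spliced in 88.1% of reads in replicate 1 (193 of 219 reads; 95% exact interval 83.1% to 92.1%) and 82.6% in replicate 2 (38 of 46 reads; 68.6% to 92.2%), a mean of 85.4 ± 3.90% (SD, n = 2; exact Fisher p = 0.333 between the libraries). Another unannotated chain, with an acceptor upstream of that of the third exon, had 1 read in each library.

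**Figure D3:**
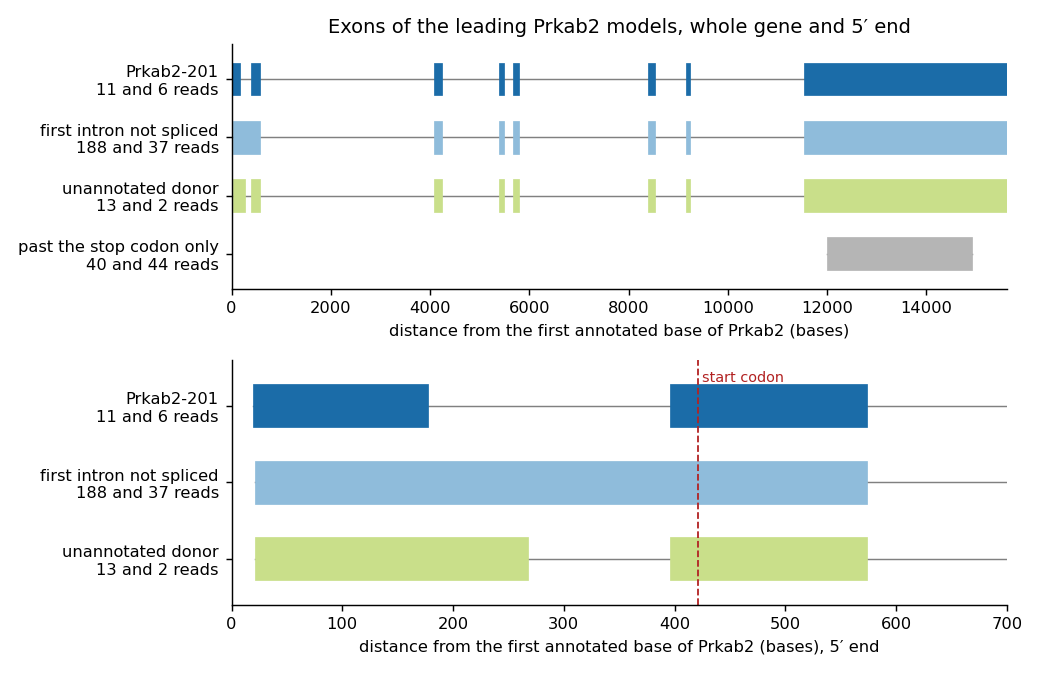
Exons (boxes) and introns (lines) of 4 Prkab2 models by distance from the first annotated base of the gene (bases), over the whole gene and over its 5′ end, with reads in replicate 1 and replicate 2 in each label; the lowest lane draws the model with most reads in replicate 1 and counts all genomic models past the stop codon. The model with 188 and 37 reads differs from Prkab2-201 in the unspliced first intron, left of the dashed start codon; model starts are as deposited and are not exact read starts.

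Prkab1, on chromosome 5 from 116013586 to 116024508 on the minus strand, has an intron at the same place, in the 5′ UTR (chr5:116024260-116024364, 105 bases), and here both forms are annotated. Prkab1-202, with the intron removed, had 9 reads in replicate 1 and 8 reads in replicate 2. Prkab1-201, without this splice, had 4 reads in replicate 1 and 3 reads in replicate 2. The intron was not spliced in 26.7% of reads on models that span it in replicate 1 (4 of 15 reads; 95% exact interval 7.79% to 55.1%) and 25.0% in replicate 2 (3 of 12 reads; 5.49% to 57.2%). These intervals lie below those of the Prkab2 intron in both libraries, and the same limit on read starts holds.

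Prkab1 also had reads without the coding exon at chr5:116020004-116020118, as in Prkab1-208, which is annotated as a target of nonsense-mediated decay, the pathway that degrades RNA with an early stop codon. The exon was skipped in 3 of 16 reads in replicate 1 (18.8%; 95% exact interval 4.05% to 45.6%) and in 1 of 12 reads in replicate 2 (8.33%; 0.211% to 38.5%). The exon is in capitals in the first line, and the early stop codon of the joined form is in capitals in the second.
Prkab1 exon: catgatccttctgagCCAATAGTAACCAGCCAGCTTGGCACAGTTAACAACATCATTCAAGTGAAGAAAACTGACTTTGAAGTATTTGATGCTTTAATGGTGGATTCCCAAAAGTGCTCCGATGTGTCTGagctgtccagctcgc
Prkab1 joined: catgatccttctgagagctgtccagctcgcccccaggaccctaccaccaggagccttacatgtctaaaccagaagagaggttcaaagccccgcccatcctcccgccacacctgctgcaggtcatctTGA
The exon has 115 bases, so its loss shifts the frame, and the joined form has 176 codons before the stop codon where Prkab1-202 has 270. This stop codon lies 89 bases before the last exon junction.

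Prkag3, on chromosome 1 from 74738922 to 74749221 on the minus strand, encodes the gamma subunit known mainly from fast glycolytic muscle. All annotated reads, 91 in replicate 1 and 47 in replicate 2, were given to Prkag3-206, which has the same intron chain as Prkag3-204, a transcript that the annotation labels as a target of nonsense-mediated decay. Both hold an intron after the stop codon, 526 bases at chr1:74740061-74740586, which begins 118 bases past the stop codon. It was removed in every read that crossed it, 172 of 172 in replicate 1 (95% exact interval 97.9% to 100%) and 101 of 101 in replicate 2 (96.4% to 100%). Prkag3-201 and Prkag3-202, the annotated coding transcripts whose last exon ends within this intron, had no read. In Prkag1-201 and Prkaa2-201, in contrast, the stop codon lies in the last exon.

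The second Prkag3 chain is an incomplete splice match of 11 exons with 37 reads in replicate 1 and 25 reads in replicate 2. It starts at 74747518 in exon 4, lacks the first 3 exons with the start codon, and ends at 74736681, past the annotated end of the gene. Both ends are annotated exon boundaries of other transcripts, Prkag3-203 and the neighbouring gene Cyp27a1 on the opposite strand, so they too are not exact read ends. Over all models, 39 reads in replicate 1 and 32 reads in replicate 2 began in exon 4, and 51 and 26 reads ended past the annotated gene end. In the frame of Prkag3-206, of 489 codons, the next ATG codon after 74747518 is codon 185, at 74747232 in exon 4. It is shown in capitals with 21 bases on each side.
Prkag3 exon 4: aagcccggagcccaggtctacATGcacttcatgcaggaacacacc
Reads that begin further along exon 4 than the model does may lack this codon.

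Prkag3 held 43 of the 77 unannotated chains of the family and 7 of the 15 that were found in both libraries. Most of these 7 differ at the 5′ end. A form with no splice at intron 1 had 9 reads in replicate 1 and 3 reads in replicate 2. A form with exon 1 extended to 74748761 had 5 reads in replicate 1 and 3 reads in replicate 2. Extensions to 74748697 and to 74748686 each had 2 reads in replicate 1 and 1 read in replicate 2. A form without exon 2 (chr1:74748472-74748511, 40 bases) had 1 read in replicate 1 and 2 reads in replicate 2. Another incomplete match from exon 5 had 1 read in each library. Without exon 2 the frame from the first start codon meets a stop codon in exon 3, after 15 codons; the exon and the stop codon are in capitals.
Prkag3 exon 2: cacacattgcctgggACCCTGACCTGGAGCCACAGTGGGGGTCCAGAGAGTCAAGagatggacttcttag
Prkag3 joined: cacacattgcctgggagatggacttctTAG
Prkag3-202 has its annotated start codon in exon 3, and these 5 forms, apart from the incomplete matches from exons 4 and 5, hold its complete coding chain. Of the 120 complete Prkag3 reads in replicate 1 and 57 in replicate 2, 93 and 47 held the coding chain from the start codon in exon 1.

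**Figure D4:**
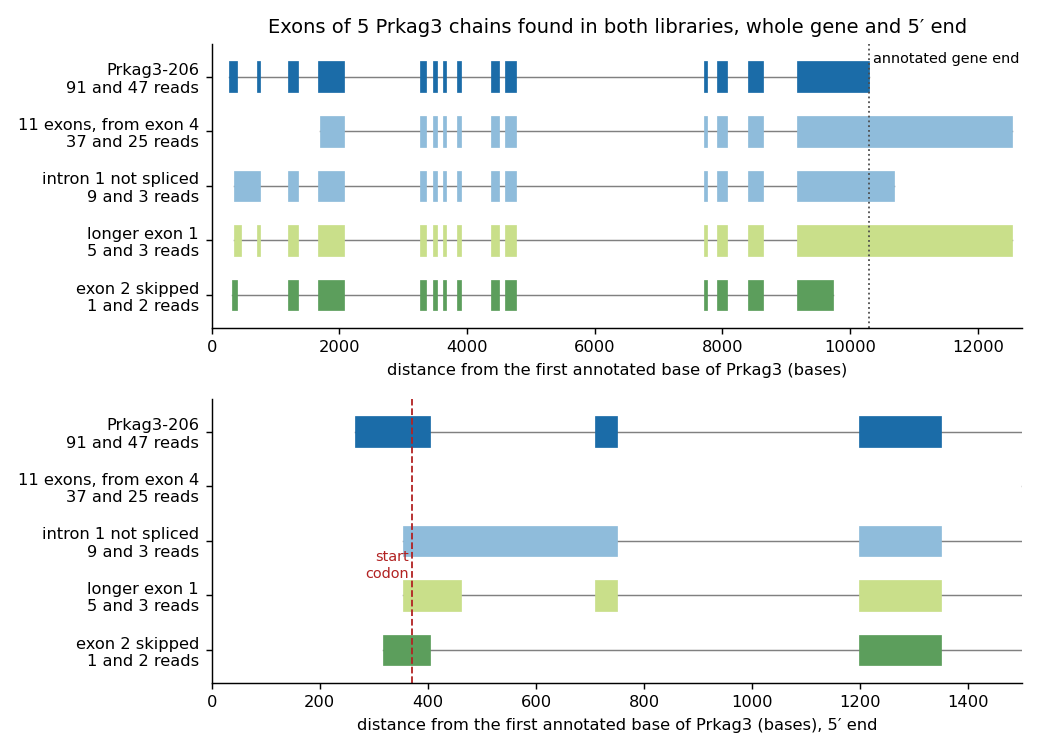
Exons (boxes) and introns (lines) of 5 Prkag3 chains by distance from the first annotated base of the gene (bases), over the whole gene and its 5′ end, with reads in replicate 1 and replicate 2 in each label. The chain with 37 and 25 reads has no splice before exon 4, and the introns of the other unannotated chains differ from those of Prkag3-206 near the start codon (dashed line); model ends are as deposited and are not exact read ends.

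Prkag1, on chromosome 15 from 98812797 to 98831521 on the minus strand, encodes the gamma subunit that is found in most tissues. It had 59 reads in replicate 1 and 65 reads in replicate 2, the ratio of CPM closest to 1 among the 7 genes (1.16). Prkag1-201 held 40 and 37 of them, 74.1% of the reads outside incomplete and genomic models in replicate 1 and 69.8% in replicate 2. For Prkag3-206 the corresponding shares were 73.4% in replicate 1 and 70.1% in replicate 2. Neither share passed the test of a difference between replicates (2-sided exact Fisher test, adjusted p = 0.735 for both). The other Prkag1 reads outside incomplete and genomic models fell mainly on a pair of unannotated chains. The introns of this pair differ from those of Prkag1-201 in the donor of the first alone. In one the donor lies 295 bases further into the intron, after 98831135, in the other 543 bases further, after 98830887, and each had 6 reads in replicate 1 and 6 reads in replicate 2. Both donors follow the start codon of Prkag1-201, at 98831438, and the second is also that of the annotated first exon of Prkag1-206. Of the reads with the annotated donor or one further into the intron, 24.5% in replicate 1 (13 of 53 reads; 95% exact interval 13.8% to 38.3%) and 25.0% in replicate 2 (13 of 52 reads; 14.0% to 38.9%) used one further in (exact Fisher p = 1). Another chain, an incomplete match that starts before the second exon of Prkag1-201, had 4 reads in each library.

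Prkag2, on chromosome 5 from 24862744 to 25100642 on the minus strand, spans the longest gene body of the family and has annotated first exons far apart, which give proteins with N-terminal parts of different length. Prkag2-203, the short form, held 3 of 6 reads in replicate 1 and 6 of 13 reads in replicate 2. Counting every model by its first exon, 5 of 6 reads in replicate 1 and 11 of 13 reads in replicate 2 had a first exon with the donor of that of Prkag2-203 (chr5:24908323-24908469), 1 read in replicate 1 began at that of Prkag2-201, and 1 read in replicate 2 at that of Prkag2-202. For 1 of these 11 reads the model's first exon reaches further upstream, across the whole window printed for Prkag2-203. The coding regions from these starts have 326 codons for Prkag2-203, 443 for Prkag2-202 and 566 for Prkag2-201. RefSeq gives a start site beside each, and the 250 bases upstream of each on the minus strand of mm10 (GRCm38.p6) are shown, since the reads fall unequally on them. Capitals mark the motifs CCAAT (the CCAAT box), GGGCGG (the GC box) and CANNTG (the E box) on either strand, and matches that overlap or adjoin run together.
Upstream of Prkag2-203 (chr5:24908510-24908759): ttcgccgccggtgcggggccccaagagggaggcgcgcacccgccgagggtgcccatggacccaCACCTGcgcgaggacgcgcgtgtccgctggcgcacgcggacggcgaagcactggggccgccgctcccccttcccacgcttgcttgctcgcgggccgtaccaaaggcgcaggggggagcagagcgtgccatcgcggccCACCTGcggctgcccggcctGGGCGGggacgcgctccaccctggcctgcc
Upstream of Prkag2-202 (chr5:24995754-24996003): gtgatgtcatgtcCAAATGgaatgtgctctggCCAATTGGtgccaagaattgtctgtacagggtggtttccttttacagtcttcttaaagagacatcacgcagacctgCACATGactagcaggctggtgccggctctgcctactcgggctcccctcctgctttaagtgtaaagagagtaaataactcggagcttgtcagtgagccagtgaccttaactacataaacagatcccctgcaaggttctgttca
Upstream of Prkag2-201 (chr5:25100643-25100892): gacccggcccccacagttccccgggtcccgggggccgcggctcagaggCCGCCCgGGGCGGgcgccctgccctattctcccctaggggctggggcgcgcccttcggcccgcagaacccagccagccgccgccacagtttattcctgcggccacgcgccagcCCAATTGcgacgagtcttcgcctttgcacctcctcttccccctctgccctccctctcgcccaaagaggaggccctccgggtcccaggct
The window upstream of Prkag2-203 has a GC content of 77.2% and 34 CG dinucleotides, that of Prkag2-201 has 73.2% and 23, and that of Prkag2-202 has 48.4% and 4, where the median GC content of the 32851 RefSeq windows was 52.4%. TATAAA, which 12.4% of all windows hold, was in none of the 3. CCAAT, in 33.8% of all windows, was upstream of Prkag2-202 and Prkag2-201. GGGCGG, in 32.7%, was upstream of Prkag2-203 and Prkag2-201, and the E box, in 66.2%, upstream of all 3. These are matches of letters and show no binding.

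A Prkag2 chain found in both libraries, with 2 reads in each, differs from Prkag2-203 in an acceptor 3 bases upstream in the second exon, a site annotated in Prkag2-210. The junctions are shown from the annotated sequences, with the added bases in capitals.
Prkag2-203: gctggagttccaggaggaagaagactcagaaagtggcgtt
Prkag2-210: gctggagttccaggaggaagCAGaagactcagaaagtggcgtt
The longer form had 2 of 6 reads in replicate 1 (33.3%; 95% exact interval 4.33% to 77.7%) and 2 of 12 reads in replicate 2 (16.7%; 2.09% to 48.4%).

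Between the libraries, 3 of the 7 genes differed past the threshold and all 3 were higher in replicate 1 (two-sided Fisher exact test on reads, Benjamini-Hochberg adjusted over 8692 genes with 10 or more reads, threshold 0.05). Over all tested genes, 26.3% were called higher in replicate 1 and 17.0% lower, 43.3% in all, so a call of this test was common and 3 of 7 is near that background. Prkaa2 was 5.26 times as high in CPM in replicate 1 as in replicate 2 (log2 ratio of CPM + 1 of 2.29, adjusted p = 1.76e-10 by the exact test). Whether Prkaa2 was called depended on whether reads of the opposite strand were counted with it. Models antisense to Prkaa2 held 8 reads in replicate 1 and 49 in replicate 2. With them added the gene had 74 and 65 reads, a CPM ratio of 1.45. That ratio was not called (log2 ratio 0.53, adjusted p = 0.0697 by the exact test). This addition was chosen after the data were seen. With annotated models alone Prkaa2 had 45 and 4 reads, a log2 ratio of 3.62 that was called. Prkab2 was 3.74 times as high (log2 ratio 1.88, adjusted p = 5.16e-30 by the exact test) and Prkag3 2.03 times as high (log2 ratio 1.01, adjusted p = 3.07e-08 by the exact test). With annotated models alone Prkab2 had 13 and 6 reads and was not called (log2 ratio 1.41, adjusted p = 0.0635 by the exact test), while Prkag3 was. Without genomic and incomplete models Prkab2 had 32 and 9 reads and was called (log2 ratio 1.86, adjusted p = 0.000278 by the exact test). The other 4 genes were not called with reads of all classes. Their log2 ratios were 0.84 for Prkaa1, 0.82 for Prkab1, 0.21 for Prkag1 and -0.66 for Prkag2. The sign of Prkag1 turned under TMM and DESeq2 scaling. The median log2 ratio was 0.84 over the 7 genes and 0.27 over all tested genes, and under TMM scaling the median of all tested genes was 0.02, with 3 of the 7 genes called higher. The test knows no spread between animals: with an assumed biological coefficient of variation of 0.4, edgeR's exact test called none of the 7 genes and 0.0920% of all genes, with 2 of the 7 at an unadjusted exact p of 0.0141 (Prkaa2) and 0.0316 (Prkab2).

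The difference between the libraries moved with transcript length over all genes. The median log2 ratio was -1.08 for the 926 tested genes with annotated transcripts under 1000 bases, -0.23 for the 2116 genes from 1000 to 2000 bases, 0.65 for the 3384 genes from 2000 to 4000 bases and 1.08 for the 1781 genes of 4000 bases or more. Prkaa2 (7969 bases) and Prkab2 (4861 bases) lay above the upper quartile of their length class, 1.69. Prkag3 (2832 bases) lay within the quartiles of its class, 0.07 to 1.20, as did Prkaa1 (4655 bases) in its own. By read-weighted length Prkab1 (1798 bases) and Prkag1 (1652 bases) fell in the class from 1000 to 2000 bases. Both lay above its upper quartile of 0.20, Prkag1 only just, at 0.21. The leading Prkab1 transcripts, Prkab1-202 and Prkab1-201, have 2026 and 2089 bases, and in the next class its ratio of 0.82 would lie within the quartiles. Prkag2 (2205 bases) lay below the lower quartile of its class, 0.07. The part of length in these differences was not tested.

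**Figure D5:**
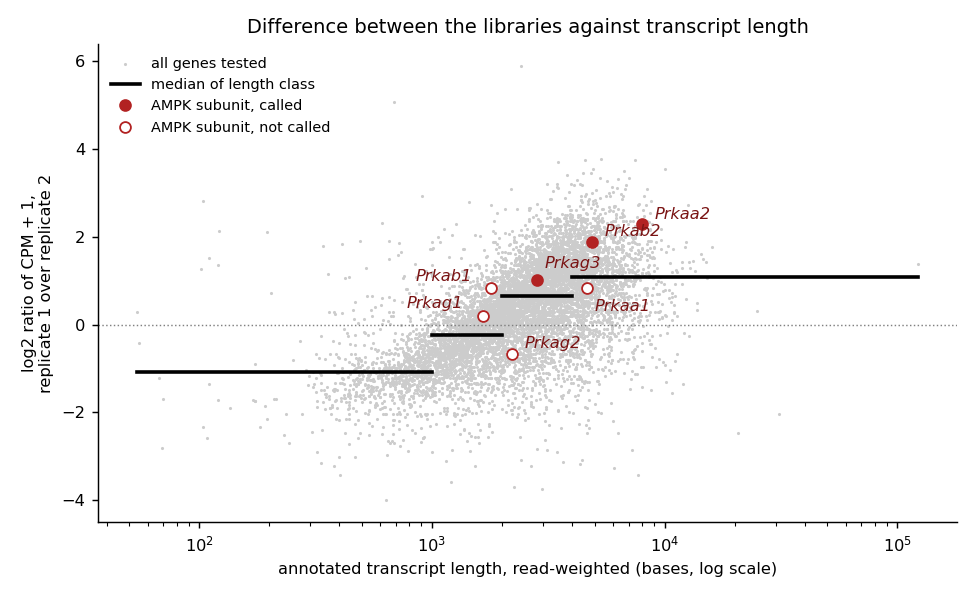
Log2 ratio of CPM + 1, replicate 1 over replicate 2, against the read-weighted length of the annotated transcripts of a gene (bases, log scale) for the 8207 tested genes with such a length (grey), with the median of each of 4 length classes (black lines) and the AMPK subunit genes in red, filled where called. The medians go from -1.08 in the shortest class to 1.08 in the longest, and Prkaa2 and Prkab2 lie above the line of the longest class.

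The other genes of the pathway were described in 7 lists by role, with 52 genes, of which 51 had reads and 42 were tested. Of these, 26 (61.9%) were called higher in replicate 1, 3 (7.14%) lower, and 13 were not called, beside the 26.3% and 17.0% of all tested genes. The median log2 ratio of the 42 was 1.08, and the median annotated length was 3826 bases in 39 of them that had one, against 2522 bases over 8207 tested genes. The values below are means over both libraries (SD, n = 2).

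Among the upstream kinases and their partners, whose genes summed to 305 ± 48.0 CPM, 4 of 6 tested genes were higher in replicate 1 and 1 was lower. Stradb and Cab39, which encode an LKB1 pseudokinase partner and the scaffold MO25, were at 124 ± 32.9 and 79.5 ± 42.2 CPM. Cab39l, the paralogue of Cab39, was at 55.5 ± 48.3 CPM and was the one lower in replicate 1 (21.4 CPM in replicate 1 and 89.7 CPM in replicate 2, log2 ratio -2.02, adjusted p = 2.32e-13 by the exact test). Map3k7, the kinase TAK1, was at 17.8 ± 9.69 CPM. Of the phosphatases reported to act on AMPK, Ppm1a was at 125 ± 61.2 CPM and the only one called, while Ppm1f was at 5.64 ± 2.50 CPM and Ppm1e had 1 read in replicate 1 and none in replicate 2.

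Among the lipid targets, 2 of 6 were higher in replicate 1 and none lower. Mlycd, the malonyl-CoA decarboxylase, was at 166 ± 69.8 CPM and was called. Acacb, the acetyl-CoA carboxylase of oxidative tissues, was at 35.3 ± 11.7 CPM, above its lipogenic paralogue Acaca at 5.28 ± 1.66 CPM, and Srebf1, a regulator of lipogenic genes, was at 11.4 ± 6.03 CPM. Neither paralogue was called. Among the glucose and glycogen targets, 5 of 7 were higher in replicate 1 and none lower. Slc2a4, the insulin- and contraction-responsive glucose transporter GLUT4, led with 184 ± 92.3 CPM, followed by the glycogen synthase Gys1 with 147 ± 75.7, the glucose uptake inhibitor Txnip with 70.4 ± 45.8 and the Rab GTPase-activating protein Tbc1d1 with 29.3 ± 29.5 CPM. All 4 were among those called.

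Among the growth, autophagy and mitochondrial targets, 6 of 8 tested genes were higher in replicate 1 and none lower. Mff, the mitochondrial fission factor, was at 122 ± 8.47 CPM and was not called. Becn1, the gene of the autophagy protein beclin 1, was at 68.1 ± 27.0 CPM. Tsc2, an inhibitor of mTORC1 signalling, was at 55.3 ± 50.9 and Flcn, folliculin, at 40.6 ± 31.0 CPM. Among the transcription targets, 4 of 6 were higher and 1 lower in replicate 1. The class IIa histone deacetylase Hdac7 was at 33.4 ± 19.4 CPM and was the lower one, while its relatives Hdac4 at 19.9 ± 17.2 and Hdac5 at 19.2 ± 13.5 CPM, and the coactivator Ppargc1a at 23.3 ± 14.7 CPM, were higher. Of the AMPK-related kinases, 4 of 7 tested genes were higher and 1 lower: Mark3 was at 45.5 ± 28.7, Snrk at 34.7 ± 30.0, Nuak1 at 33.3 ± 37.8 and Mark2 at 23.8 ± 24.5 CPM. Nuak1 was the lower one, with 8 reads in replicate 1 and 93 reads in replicate 2 (log2 ratio -3.01, adjusted p = 2.79e-14 by the exact test).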

How the data were processed

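Both libraries are long-read RNA-seq of mouse gastrocnemius. The deposited tables hold whole read counts per transcript model, not normalized; per the file headers, models are annotated transcripts of GENCODE M21 on mm10 or new models made by TALON, 1 library per table. Model coordinates come from the deposited annotation files. No source used here gives the aligner, the read filters or the use of strand; reads from a gene and an antisense partner cannot be told apart without strand. Both alleles of the F1 hybrid were assigned on one reference.

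Reads of all classes were summed per gene without spike-ins. Replicate 1 held 1292409 reads in all, replicate 2 held 1703457. Models were matched between libraries by exact intron chain. Reads are not independent molecules where a library was amplified, so intervals, limits and Fisher tests cover counting error only; p-values compare these 2 libraries, not conditions. Coordinates count from 1. Exon sequences are from the M21 transcripts and promoters from RefSeq, which held all 7 genes with 9 start sites. Length alternatives use the read-weighted length of the models. Named genes were the 7 members, the 4 highest of each pathway list, annotated transcripts with most reads or 5 or more, and unannotated chains in both libraries; Prkab1-208 and features of Prkag3-201 to Prkag3-204, Prkag2-201, Prkag2-202 and Prkag2-210 were named after their values were seen. Members and lists were chosen with earlier results of these data known. Alternatives were TMM (edgeR 4.0.16), DESeq2 1.42.0 size factors, read filters, model classes, reads per kb, assumed coefficients of variation of 0.2 and 0.4, pseudocounts of 0.1 and 10, splice sites within 5 bp and leaving out a library. Intervals used scipy 1.17.1. The gene test was checked on simulated counts with counting error alone. They held no spread between animals and no difference with transcript length, so the check does not cover these.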

Additional observations from a re-analysis of the deposited data

Results flagged for a closer look

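Reads antisense to AMPK subunit genes lie outside the levels given above, and with no control samples they were set against the limit of 3 counts that a count of 0 allows. Over Prkaa2, models on the opposite strand held 8 reads in 5 models in replicate 1 and 49 reads in 13 models in replicate 2, beside 66 and 16 sense reads. Antisense reads were thus 10.8% of both kinds in replicate 1 (95% exact interval 4.78% to 20.2%) and 75.4% in replicate 2 (63.1% to 85.2%). In replicate 2 the models with most reads were single-exon. The first, with 18 reads at chr4:105030368-105031735, lies inside the last exon of Prkaa2. The next, with 9 reads at chr4:105106700-105108047 and 8 reads at chr4:105069954-105070222, each lie within an intron of Prkaa2-201. Over all mouse models, antisense reads made up 1.74% in replicate 1 and 5.34% in replicate 2. Over Prkaa1, antisense models held 2 reads in replicate 1 and 4 reads in replicate 2. The other 5 genes had 0 to 3 antisense reads in each library. Whether these are RNA of the opposite strand was not tested. With them added the Prkaa2 difference between the libraries was not called, while with annotated models alone it was, as the report gives.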

How the results depend on the processing

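No paired analysis was possible because the series holds 1 group. With n = 2, leaving out either library gives the value of the other, as printed in the report. Without genomic models the Prkaa2 share of alpha reads was 72.1% and the Prkab2 share of beta reads 85.2%; without genomic and incomplete models they were 70.5% and 53.1%, and with annotated models alone the Prkab2 share was 37.5%. Per kb of model length, the shares were 77.8% for Prkab2, 42.6% for Prkag1 and 52.1% for Prkag3. Complete coding chains, added after the data were seen, moved no family share by more than its SD. The Prkaa2 share on complete chains was 74.5 ± 24.5% (SD, n = 2). With models of 2 or more reads, annotated transcripts took 38.8% of reads and 9 unannotated chains, against 15, were in both libraries. The leading transcript took 100% of annotated reads in Prkag1 and Prkag3, by construction, and 62.4% and 46.5% of reads of all classes. With edgeR's exact test, 1345 of all genes were called at an assumed coefficient of variation of 0.2, among them Prkaa2 and Prkab2, and 8 at 0.4, with 0 subunit genes, against 3766 and 3 in the report. Calls higher in replicate 1 were 60.7% of all calls, 45.1% under TMM, 40.7% under DESeq2 scaling and 73.8% with annotated models. The log2 ratio of Prkag1, not called, was -0.080 under TMM and -0.14 under DESeq2 scaling. The log2 ratio of Prkaa2 was 0.53 and no longer called with antisense reads added, those within introns included. With annotated models alone it was 3.62 and called, while that of Prkab2 was 1.41 and not called. Depth limits Prkaa1, Prkag2 and Prkab1, at 19 reads or fewer per library, and Prkaa2 in replicate 2, at 16 reads.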

Other observations

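Annotated genes that overlap the AMPK subunit genes were nearly without reads. Gm15938 over Prkaa1, Gm17651 over the 3′ end of Prkab2, B130046B21Rik over Prkag1 and Prkag2os1, Prkag2os2 and 1500035N22Rik over Prkag2 had 0 reads in both libraries. Gm14508 over Prkab1 had 0 reads in replicate 1 and 1 read in replicate 2.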
